A study of Apis mellifera with 79 samples.

Results

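The comparison described here is that of forager brains from honey bee colonies kept near treated corn with forager brains from colonies kept away from it. Its members are the 10 forager pools of the field study, out of 79 libraries in the whole series, and they were taken by their labels: the exposed pools are 2J1, 2J2, 2J3, 2J4 and 2J5, and the unexposed pools are 1J7, 1J9, 2J10, 2J6 and 2J7. Each pool is an RNA sequencing library made from the brains of 5 foragers of a single colony, so that n is 5 colonies in each group, and the values are log2 CPM, that is, the reads of a gene scaled to the size of its library and put on a log2 scale, for 10976 genes. The series also holds 9 pools of nurse brains from the same field colonies and 60 libraries of single brains from an apiary experiment with clothianidin, of which 30 are foragers and 30 are nurses. The exposed colonies stood at a site near corn grown from seed coated with neonicotinoids, and the unexposed colonies stood at a site at least 3 km from agriculture. All exposed pools came from the first site and all unexposed pools from the second, and the effects of exposure and of site cannot be told apart. The foragers were workers returning with pollen, the hypopharyngeal glands and ocelli were removed at dissection, and the labels give neither the age nor the genotype of the bees.

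Neonicotinoids such as clothianidin and thiamethoxam are insecticides that bind nicotinic acetylcholine receptors, the main excitatory receptors of the insect brain. Worker honey bees change tasks with age, from nursing inside the hive to foraging outside it, and this maturation goes along with changes in juvenile hormone and in the expression of many brain genes. Several of the genes followed below are transcription factors, proteins that bind DNA and switch other genes on or off, and among them are Kr-h1, whose zinc finger protein acts downstream of juvenile hormone, and Mblk-1, which is known from the mushroom bodies, the centres of learning and memory in the bee brain.

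The reads assigned to genes ran from 17.3 to 34.7 M in exposed pools (median 23.7 M) and from 24.0 to 34.1 M in unexposed pools (median 26.6 M), and did not differ between the groups beyond the spread of the pools (two-sided exact permutation test, p = 0.468, where 5 pools against 5 allow no p below 0.00794). Per the labels, the exposed pools 2J1 and 2J2 and the unexposed pools 1J7 and 2J10 were sequenced in 1 lane, and the exposed pools 2J3, 2J4 and 2J5 shared a lane with the unexposed pool 2J6. The unexposed pools 2J7 and 1J9 each had a lane with no other forager pool. The tissue label could be checked only through genes the study itself names. Mblk-1 lay between 8.96 and 10.93 log2 CPM in the 10 pools and ranked 74th of 10976 genes by its mean level. That level alone does not establish the tissue, because the series holds brain libraries only.

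Among the exposed pools, 2J1 stood apart and went against its label in most genes. Over the 8410 genes with a mean of at least 3 log2 CPM, the median absolute difference of 2J1 from the other exposed pools was 0.24 to 0.34 log2 units, and the pool nearest to it was the unexposed pool 2J7, at a median difference of 0.13. Of the other exposed pools, 2J2 and 2J4 were nearest to 2J5, and 2J3 and 2J5 were nearest to 2J4. On the first principal component of the 10 pools, which held 42% of the variance, the exposed pools 2J2, 2J3, 2J4 and 2J5 scored 29.2, 27.3, 21.9 and 20.7, while 2J1 scored -32.4. The unexposed pools 1J7, 1J9, 2J10, 2J6 and 2J7 scored -14.5, 6.39, -0.02, -17.9 and -40.7 on this component. The 4 highest scores thus belonged to exposed pools, and the 2 lowest to 2J7 and 2J1. The exposed pools 2J1 and 2J2 were sequenced in the same lane and lay near opposite ends of this component. The exposed pools 2J3, 2J4 and 2J5 shared another lane and scored close together, while the unexposed pool 2J6 of that lane scored -17.9. The part of the lane in this component was not tested.

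**Figure D1:**
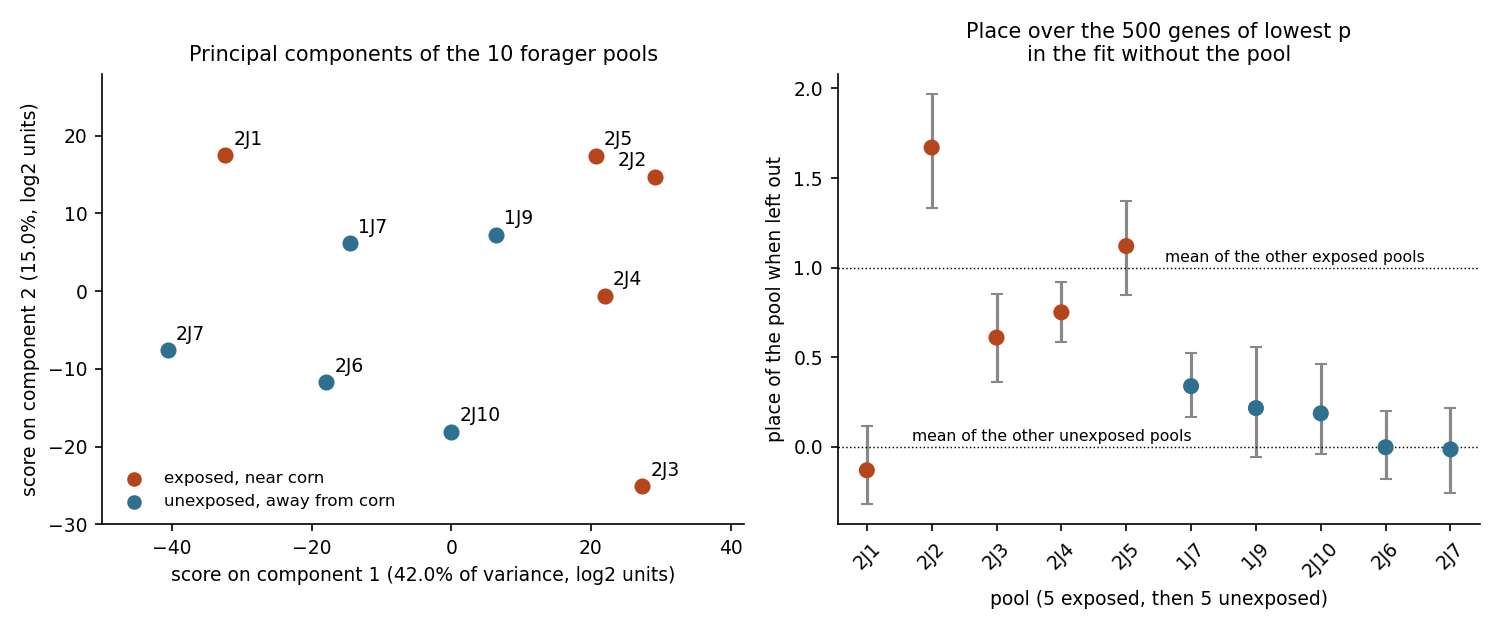
Left, scores of the 10 forager pools on the first and second principal components of all 10976 genes (log2 units; exposed pools in red, unexposed pools in blue). Right, the place of each pool when it was left out of the fit, on a scale where 0 is the mean of the other unexposed pools and 1 the mean of the other exposed pools (points are medians over 500 genes, bars the quartiles); exposed pool 2J1 sits at -0.13, below all unexposed pools, and 2J2 at 1.67, beyond the other exposed pools.

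The first component was tested together with the next 3, and none separated the groups. The mean score on it was 13.3 ± 25.8 in exposed pools and -13.3 ± 18.3 in unexposed pools (SD, n = 5 pools each; two-sided exact permutation test, p = 0.0952, adjusted p = 0.19 over 4 components by Benjamini-Hochberg). The plot of these scores shows that without 2J1 the exposed pools would all lie to the right of the unexposed pools. The third component, with 11% of the variance, set a single unexposed pool apart, 1J9 at -29.1, which was also the pool sequenced in a different run. The share of reads in the 10 most abundant genes varied alongside the first component: it was 6.07% in 2J1 and 5.09 to 5.70% in the other exposed pools, and 6.40% in 2J7 and 5.56 to 6.20% in the other unexposed pools. Its part in the result was not tested.

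With the group means taken out, 39.9% of the variance that remained lay on a single axis, and the groups themselves accounted for 19.4% of the total variance. On that axis 2J1 scored -48.3 and the other exposed pools 7.04 to 17.7, and 2J7 scored -27.3 and the other unexposed pools -4.72 to 20.9. The exposed pool 2J1 alone held 40.4% of the variation inside its group, against 10.3 to 21.5% for each of the other exposed pools, and 2J7 held 26.4% and 1J9 27.1% of that inside the unexposed group. Across the 10976 genes the weights of this axis and the log2 fold changes between the groups had a correlation of 0.56. It is a description only, because both were computed from the same 10 libraries and genes are not independent.

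Each pool was then set against the others with its own values kept out of the choice of genes. For this, limma was fitted without the pool, the 500 genes with the lowest p were taken, and the pool was placed on a scale from 0 (mean of the other unexposed pools) to 1 (mean of the other exposed pools). The exposed pools 2J1, 2J2, 2J3, 2J4 and 2J5 had median places of -0.13, 1.67, 0.61, 0.75 and 1.12. The unexposed pools 1J7, 1J9, 2J10, 2J6 and 2J7 had median places of 0.34, 0.22, 0.19, -0.002 and -0.01. So 9 of the 10 pools fell nearer to their own label, and 2J1 did not: only 30 of its 500 genes (6%) lay nearer to the exposed mean, whereas the other exposed pools had 61 to 98.6% of genes there and the unexposed pools 7.4 to 29.6%. The direction mattered for 2J1. Its median place was -0.21 over the 379 genes that were higher in the other exposed pools and 0.24 over those that were lower.

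Over all 10 pools, no gene passed the test. Limma on the log2 CPM values, two-sided and with its prior variance following the level of the gene, called 0 of 10976 genes (0%) at a Benjamini-Hochberg adjusted p below 0.05. The lowest adjusted p, 0.0956, was shared by 264 genes. An unadjusted p below 0.05 was reached by 2657 genes (24.2%), of which 1176 averaged higher and 1481 lower in exposed pools. Most differences were small: the log2 fold change, here the mean of exposed pools minus that of unexposed pools, had a median of 0.01, with quartiles of -0.14 and 0.22, and it lay above 1 in 48 genes and below -1 in 20. The spread was uneven in direction, since the upper 5% of genes began at 0.64 and the lower 5% ended at -0.30. A negative binomial test on reads worked back from the values, the kind of test the study used, called 296 genes (2.7%), 259 higher (2.36%) and 37 lower (0.337%). That count rested on single pools, being 0 without 2J7, 14 without 2J2, 22 without 2J6, 28 without 2J5 and 2177 without 2J1. It was 62 to 75 without 2J3, 2J4 or 1J7, 366 without 2J10 and 435 without 1J9.

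Of the single pools, 2J1 changed the result most when left out. Without it limma called 2921 genes (26.6%), of which 1592 (14.5%) were higher and 1329 (12.1%) lower in the 4 remaining exposed pools, and leaving out any of the other 9 pools in turn gave 0. Each pool was left out in turn, but the fit without 2J1 was singled out after its values were seen. Adjusted p-values without 2J1, here and for single genes below, therefore describe the weight of this pool and do not establish single genes. Pool 2J1 was also given the lowest quality weight, 0.228, when limma estimated 1 weight for each pool from its residuals, against 0.590 to 2.78 for the other exposed pools and 0.691 to 3.38 for the unexposed pools. With these weights limma called 3389 genes (30.9%), 1757 higher (16%) and 1632 lower (14.9%). With 2J1 and 2J7 both left out it called 2233 (20.3%), 1327 higher (12.1%) and 906 lower (8.25%). With the sequencing run and lane as a term it called 0, the lowest adjusted p was 0.413, and 89.9% of genes kept the sign of their fold change. That fit uses only the lanes holding both groups, and therefore not 1J9 and 2J7.

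In the 2921 genes called without 2J1, the values of 2J1 itself were not used and can be read against the call. Its median place was -0.30 over the genes called higher and 0.16 over those called lower. Of the genes called higher, 67 of 1592 (4.21%) had 2J1 nearer to the exposed mean, and of those called lower, 336 of 1329 (25.3%) did. For 83 of the higher genes and 529 of the lower genes 2J1 also lay beyond every unexposed pool on the exposed side. For 1760 of the 2921 genes (60.3%) it lay on the far side of the unexposed mean. Thus 2J1 carried part of the lower values near corn and very few of the higher ones.

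Counting overlaps makes the same split visible without a model. In 83 genes (0.756%) all 5 exposed pools lay above all 5 unexposed pools, and in 534 genes (4.87%) all lay below. The 83 genes had a median log2 fold change of 0.50 and a median level of 3.51 log2 CPM, and the 534 genes a median log2 fold change of -0.27 and a median level of 6.39 log2 CPM. Among these genes the differences below were therefore smaller and sat in more abundant genes. The rule of no overlap passes a small difference only where the pools vary little, and its part in this was not tested. The lowest exposed pool was 2J1 in 53 of the 83 genes, and in 283 of the 534 genes the highest exposed pool was 2J1, so it was the pool closest to the other group in most of them. Without 2J1 the counts were 1340 above (12.2%) and 1362 below (12.4%), that is, nearly equal. Leaving out any other single pool gave 104 to 190 above and 546 to 760 below. By the study's list of genes it called in field foragers, which was chosen on these libraries, 21 of the 83 and 17 of the 534 were listed, against 278 of all 10976 genes.

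**Figure D2:**
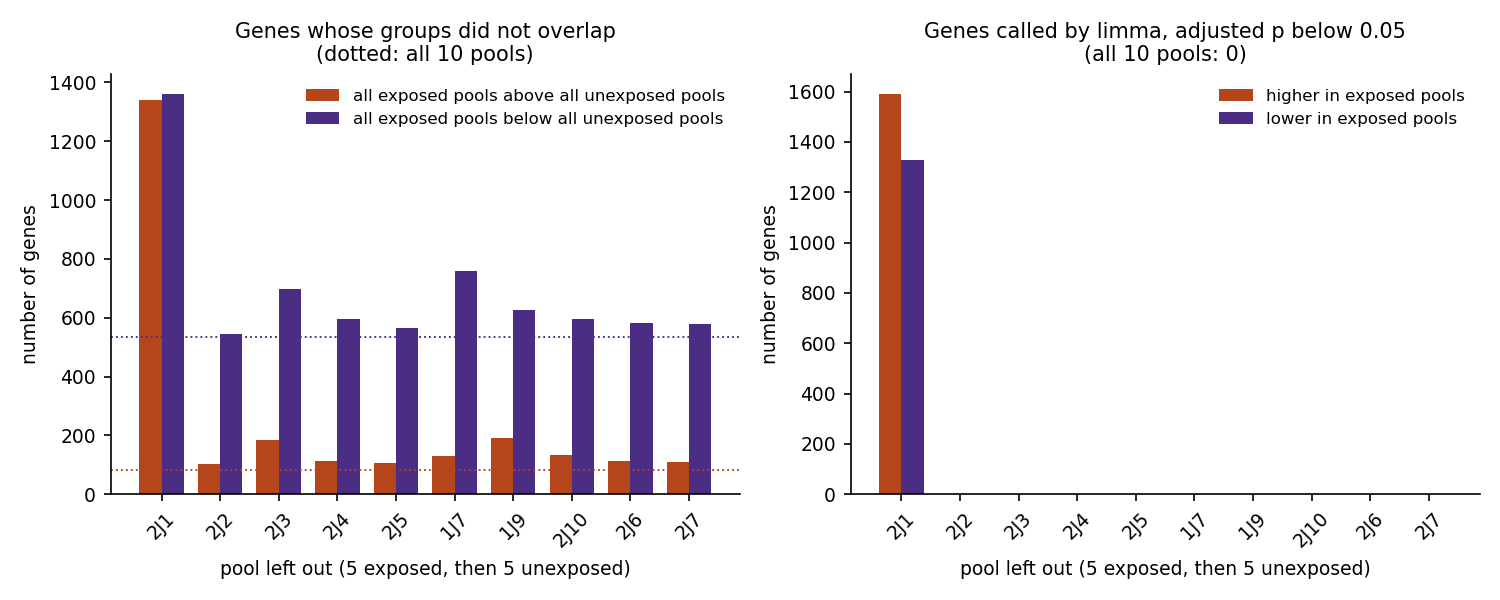
Number of genes after leaving out the pool named on the x axis. Left, genes in which the exposed pools lay above (red) or below (purple) all unexposed pools, with dotted lines at the counts of all 10 pools, 83 and 534. Right, genes called by limma at an adjusted p below 0.05, higher (red) or lower (purple) in exposed pools; without 2J1 there were 1592 and 1329, and without any other pool 0.

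Single pools also differed in how often they held the extreme value. Pool 2J2 was the highest or the lowest of the 10 in 4169 genes, 2J1 in 3386, 2J3 in 3353, 2J4 in 978 and 2J5 in 1449. Of the unexposed pools, 2J7 was extreme in 3100 genes, 1J9 in 2520, 2J10 in 1038, 1J7 in 987 and 2J6 in 972. By Dixon's criterion, which picks out about 5% of groups of 5 by chance, 1 pool stood apart from the rest of its group in 1106 genes (10.1%) among exposed pools and in 499 genes (4.55%) among unexposed pools. In 863 of the 1106 genes that pool was 2J1, 670 times below and 193 times above the others. Among unexposed pools the leading ones were 2J7 with 168 genes and 1J9 with 167. Pool 2J2, though extreme more often, stood apart from its own group in 92 genes.

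The shift depended on the level of a gene. Genes with a mean below 0 log2 CPM had a median log2 fold change of 0.34 (318 genes), those from 0 to 3 had 0.18 (2248 genes, 70.6% of them higher in exposed pools), those from 3 to 6 had 0.02 (4569 genes), those from 6 to 9 had -0.08 (3602 genes, 35.5% higher) and those at 9 and above had -0.03 (239 genes). Over all genes the median was 0.01, with 51.8% higher. In the band from 0 to 3, the median difference from the unexposed mean was -0.06 in 2J1 and 0.34, 0.20, 0.21 and 0.21 in 2J2, 2J3, 2J4 and 2J5. In the same band each unexposed pool was set against the other 4, which gave -0.02 in 1J7, 0.18 in 1J9, 0.10 in 2J10, -0.001 in 2J6 and -0.23 in 2J7. In this band the medians of 4 exposed pools and of 1J9 and 2J10 thus lay above 0, and that of 2J7 was the lowest. In the band from 6 to 9 all 5 exposed pools had negative medians, -0.04 in 2J1 and -0.08 to -0.13 in the others, while the unexposed pools lay between -0.004 and 0.02. Quantile normalization, which gives every pool the same distribution of values, brought the band from 0 to 3 to -0.01 and left the band from 6 to 9 at -0.06. Without 2J1 the medians were 0.22 and -0.10 in these bands.

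**Figure D3:**
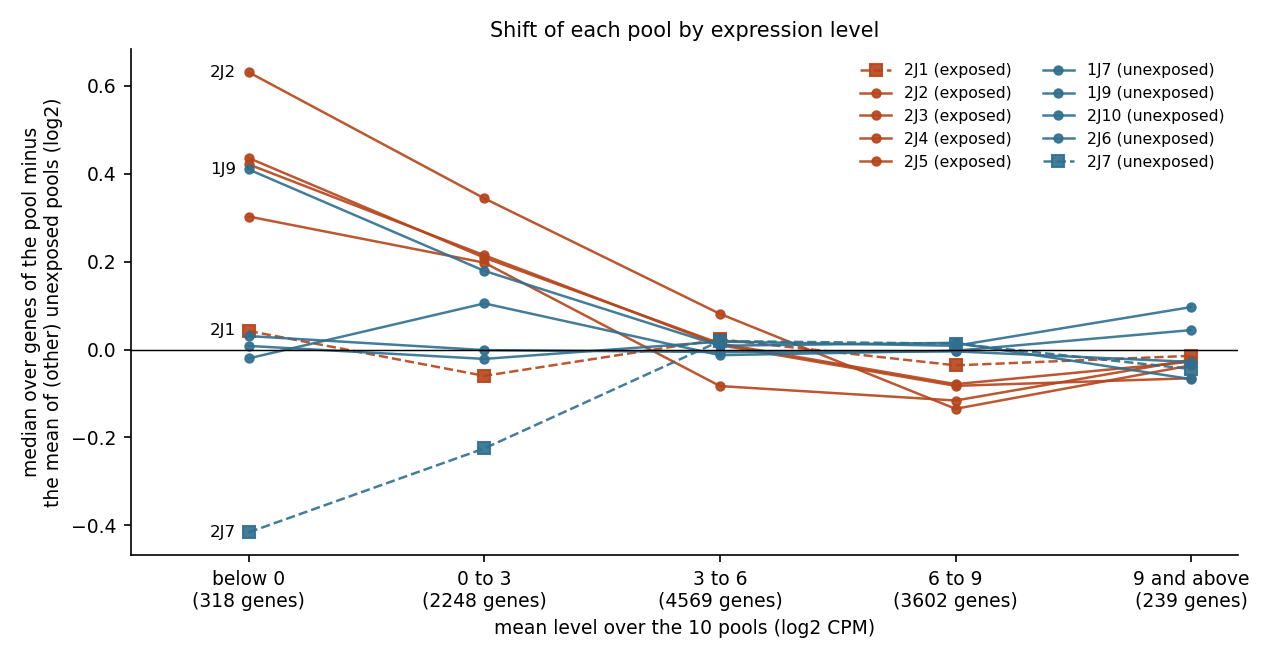
Median over genes of each pool's log2 CPM minus the mean of the unexposed pools (for an unexposed pool, minus the mean of the other 4), by the mean level of the gene in the 10 pools; exposed pools are red, unexposed pools blue, and 2J1 and 2J7 dashed with squares. Below 3 log2 CPM, 2J2 to 2J5 and 1J9 lie above 0 and 2J7 below, and from 6 to 9 all exposed pools lie below 0.

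A set of 16 genes that the study lists as transcription factors was followed pool by pool. For LOC726709 among them the study gives the fly homologue klarsicht, which ties microtubule motors to structures of the cell. The set was chosen by the study on these libraries, so its direction is not independent evidence. In limma over all genes none was called (adjusted p from 0.0956 to 0.145), 14 averaged higher and 2 lower in exposed pools, and their median log2 fold change was 0.60, against 0.01 for all 10976 genes. The negative binomial test over all 10 pools called 15 of the 16, in a test that called 2.7% of all genes. The exception was LOC411780 (adjusted p = 0.0575 in that test). It is the kind of test by which the study chose the set. Without 2J1 all 16 were called, 14 higher and 2 lower, in a fit that called 26.6% of all genes (14.5% higher and 12.1% lower), and the median was 0.82. Taken over the 14 that averaged higher, 2J1 had a median of -0.14 log2 units relative to the unexposed mean, while 2J2, 2J3, 2J4 and 2J5 had 0.91, 0.84, 0.79 and 0.90. The unexposed pools 1J7, 1J9, 2J10, 2J6 and 2J7 had 0.07, 0.19, 0.25, -0.09 and -0.36 on the same scale. Pool 2J1 was the lowest exposed pool in all 14 of these genes and below the unexposed mean in 11 of them. Among unexposed pools 2J7 was the lowest in 10 and 2J6 in the other 4.

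**Figure D4:**
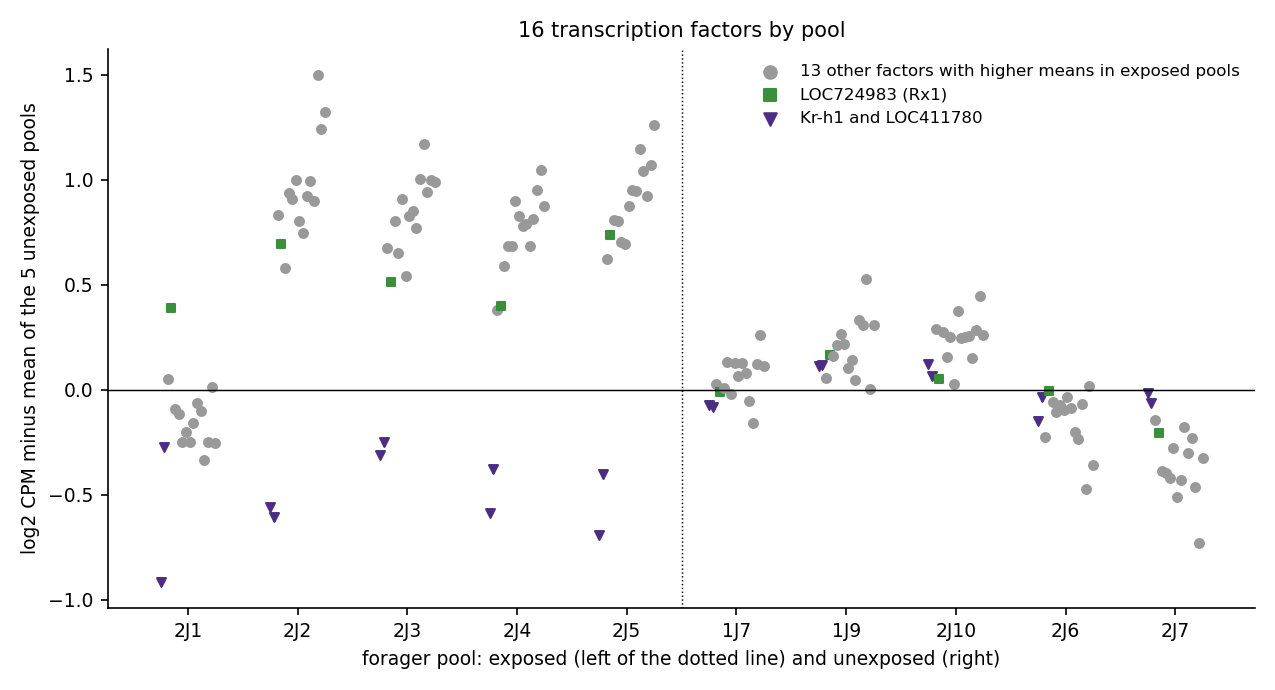
Log2 CPM of 16 transcription factors in each forager pool, relative to the mean of the 5 unexposed pools (1 point per gene and pool; exposed pools left of the dotted line, unexposed pools right). In 2J1 the grey factors lie near or below 0, whereas Kr-h1 and LOC411780 (purple) and LOC724983 (green) lie on the side of the other exposed pools.

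Kr-h1 (GB43022) was lower in every exposed pool. It measured 4.18, 4.54, 4.79, 4.51 and 4.41 log2 CPM in the exposed pools 2J1 to 2J5, against 5.03, 5.21, 5.22, 4.95 and 5.08 log2 CPM in the unexposed pools 1J7, 1J9, 2J10, 2J6 and 2J7. The groups did not overlap, and 2J1, which lay with the unexposed pools in most genes, was here the lowest of all. For Kr-h1 the groups differed by -0.61 on the log2 scale (standard error 0.11, limma adjusted p = 0.0956), by -0.54 without 2J1 (adjusted p = 0.00706) and by -0.60 with the lane as a term (adjusted p = 0.413). The second gene of this kind was LOC411780 (GB49050), a zinc finger gene, with 6.47, 6.14, 6.50, 6.37 and 6.34 log2 CPM in exposed pools, against 6.66, 6.86, 6.81, 6.71 and 6.68 in unexposed pools. Again all exposed pools lay below all unexposed pools, here with 2J2 the lowest and 2J3 the highest of the exposed. Its log2 fold change was -0.38 (standard error 0.08, limma adjusted p = 0.0956), and -0.41 without 2J1 (adjusted p = 0.00794).

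Among the factors with higher means near corn, the retinal homeobox gene LOC724983 (GB49611), a relative of the Rx genes that act in eye and forebrain development of vertebrates, was the only one whose groups did not overlap. It measured 4.01, 4.31, 4.13, 4.02 and 4.36 log2 CPM in exposed pools, against 3.61, 3.79, 3.67, 3.61 and 3.41 in unexposed pools. Even here 2J1 was the lowest exposed pool, though above each unexposed one. The log2 fold change of LOC724983 was 0.55 (standard error 0.11, limma adjusted p = 0.0956) and 0.59 without 2J1 (adjusted p = 0.00742).

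Mblk-1 (GB50048) was the most abundant of the factors. It measured 9.70, 10.93, 10.68, 10.73 and 10.76 log2 CPM in the exposed pools 2J1 to 2J5, against 9.95, 9.69, 10.13, 9.70 and 8.96 log2 CPM in unexposed pools. The exposed pools 2J2 to 2J5 lay above every unexposed pool, while 2J1 lay in the middle of the unexposed pools and 2J7 was the lowest of all 10. Its log2 fold change of 0.87 (standard error 0.26, limma adjusted p = 0.109) was 1.09 without 2J1 (adjusted p = 0.00714), 0.69 without 2J7 (adjusted p = 0.219) and 0.60 with the lane as a term (adjusted p = 0.427). Foxp (GB40150), a forkhead gene whose relatives act in motor learning in flies and vertebrates, also had 2J2 to 2J5 above every unexposed pool. It measured 5.89, 7.04, 7.05, 6.82 and 6.84 log2 CPM in exposed pools, against 6.12, 6.40, 6.39, 6.06 and 5.72 in unexposed pools, with 2J1 below all unexposed pools but 2J7. For Foxp the log2 fold change was 0.59 (standard error 0.21, limma adjusted p = 0.141) and 0.80 without 2J1 (adjusted p = 0.00632).

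LOC411009 (GB44042), a homologue of the nuclear factor dachshund, varied widely. It measured 4.04, 5.79, 5.23, 5.24 and 5.21 log2 CPM in exposed pools, against 4.42, 4.82, 4.58, 3.82 and 3.83 in unexposed pools. The forkhead gene LOC724740 (GB44229), named for the fly gene slp2, measured 3.31, 4.89, 4.55, 4.44 and 4.82 in exposed pools, against 3.67, 3.87, 3.83, 3.2 and 3.24 in unexposed pools. In both genes 2J1 fell inside the range of the unexposed pools, and the other exposed pools lay above that range. Their log2 fold changes were 0.81 (standard error 0.30) and 0.84 (standard error 0.28), with limma adjusted p-values of 0.145 and 0.12, and they were 1.08 and 1.11 without 2J1. LOC726415 (GB45063), a LIM homeobox gene of the Lhx9 type, had 5.28, 6.52, 6.79, 6.43 and 6.66 log2 CPM in exposed pools, against 5.46, 5.93, 5.77, 5.55 and 5.39 in unexposed pools, and there 2J1 was the lowest of all 10. LOC408411 (GB50686), a Sox-2 gene of the family that maintains neural precursors, had 5.51, 6.60, 6.61, 6.30 and 6.76 in exposed pools, against 5.56, 5.94, 5.87, 5.38 and 5.31 in unexposed pools. The other 7 factors, among them the hairy gene LOC410468, the SIX3 homeobox gene LOC551364 and the Lilliputian gene LOC100577139, followed the same order, with 2J1 inside or below the range of the unexposed pools.

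Some genes were listed by the study for several of its comparisons. The non-muscle myosin heavy chain LOC100576096 (GB40548) measured 5.71, 3.70, 6.78, 1.67 and 3.78 log2 CPM in exposed pools, against 2.97, 3.50, 1.97, 1.99 and 2.48 in unexposed pools. It was highest in 2J3 and 2J1, and its lowest value of all 10 was also in an exposed pool, 2J4. The log2 fold change was 1.75 (standard error 0.79, limma adjusted p = 0.202), and it was 1.13 without 2J3, 0.87 with pool quality weights and 2.41 without 2J4. The apiary foragers had a log2 fold change of 1.79 for LOC100576096 (standard error 0.59, limma adjusted p = 0.36). The apiary nurses had 1.53 (standard error 0.60, limma adjusted p = 0.234), and both apiary fits took single bees, not colonies, as replicates. In field nurses it was -1.51 (standard error 1.13, limma adjusted p = 0.658) with all pools and -0.57 without nurse pool 2J6, which held the highest nurse value. LOC551706 (GB54226), an unconventional myosin of class IXb, measured 3.79, 5.81, 5.09, 4.24 and 5.16 log2 CPM in exposed pools, against 3.90, 4.28, 3.71, 3.76 and 3.10 in unexposed pools. Here 2J1 lay among the unexposed pools once more, and the log2 fold change of LOC551706 was 1.07 (standard error 0.35, limma adjusted p = 0.122) and 1.33 without 2J1 (adjusted p = 0.0104). For LOC551706 it was 0.57 in apiary foragers and 0.10 in apiary nurses.

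The bestrophin gene LOC551782 (GB48190), of a family of chloride channels, and the putative Mediator subunit LOC113218918 (GB51407) rested on few pools and few reads. For LOC551782 the reads were 25, 40, 12, 19 and 15 in exposed pools, against 19, 409, 182, 16 and 561 in unexposed pools. High values occurred in 1J9, 2J10 and 2J7 alone, and 1J7 and 2J6 lay with the exposed pools. For LOC113218918 the reads were 218, 93, 12, 26 and 69 in exposed pools, against 21, 52, 15, 17 and 14 in unexposed pools, and 2J1 held the highest value. The limma adjusted p-values of these genes were 0.179 and 0.197, and those of the negative binomial test were 0.00422 and 0.0275. LOC551782 had a log2 fold change of -2.13 in field foragers, 0.64 in apiary foragers and -0.07 in apiary nurses. LOC113218918 had 1.47, -0.21 and -0.86 in the same order. GB40547 and GB43377 are 2 further genes of this kind, and of them 1 is an uncharacterized gene and the other a flagellar dynein heavy chain, but the tables used here do not tell which. GB40547 had 35, 12, 66, 3 and 7 reads in exposed pools, against 4, 4, 6, 0 and 4 in unexposed pools. GB43377 measured 3.05, 3.35, 2.86, 2.93 and 3.11 log2 CPM in exposed pools, against 4.12, 3.44, 4.16, 3.81 and 3.16 in unexposed pools, and only 2J2 overlapped the unexposed range. The log2 fold changes of GB40547 were 1.91 in field foragers, 1.30 in apiary foragers and 1.15 in apiary nurses. Those of GB43377 were -0.68, 0.91 and 1.05 in the same order.

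The genes with the lowest p over all 10976 have no name in the tables used here. GB50545 measured 4.12, 4.6, 4.18, 4.12 and 4.38 log2 CPM in exposed pools, against 3.69, 3.39, 3.54, 3.43 and 3.58 in unexposed pools (log2 fold change 0.75, standard error 0.11, limma adjusted p = 0.0956). For GB44122 the difference was 0.78 (standard error 0.13), for GB55478 -0.44 (standard error 0.07) and for GB54288 -0.43 (standard error 0.07), each with the same adjusted p in limma. These 4 genes were named for their low p, and in all of them the groups did not overlap, 2J1 included. In field nurses the log2 fold changes were -0.05 for GB50545, 0.36 for GB44122, -0.05 for GB55478 and 0.003 for GB54288.

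The lists that the study gave for its other comparisons were then read in the forager pools. Of its 45 genes for apiary foragers 40 were in the table, 26 averaged higher and 14 lower in exposed pools, and their median log2 fold change was 0.08, with 0.19 without 2J1 and -0.03 after quantile normalization. Of its 63 genes for apiary nurses 50 were in the table, 37 averaged higher and 13 lower, with a median of 0.22, and 0.04 after quantile normalization. The same normalization gave all genes a median of -0.04. None of the listed genes was called by limma, which called 0 of all 10976 genes. An unadjusted p below 0.05 was reached by 7 of the 40 (17.5%) and 11 of the 50 (22%), against 24.2% of all genes. The negative binomial test called 5 of the 40 and 4 of the 50, against 296 of all 10976 genes (2.7%). The list for field foragers, which was chosen on these libraries by the same kind of test, also holds 5 of the 40 and 4 of the 50. These are the very genes that the negative binomial test called, so those counts are not independent evidence. Whether the lists held an excess of called genes was not tested. The median levels of these lists were 1.66 and 1.42 log2 CPM, which lies in the band where the median of all genes was 0.18. Of the 9 genes for field nurses 8 were in the table, 3 averaged higher and 5 lower, and none had an unadjusted p below 0.05. The negative binomial test called 0 of these 8.

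The nurse pools of the same colonies share no library with the forager pools. An unexposed nurse pool, 2J6, stood apart there: its median absolute difference from the other nurse pools was 0.34 log2 units, against 0.11 to 0.15 for each exposed nurse pool and 0.12 to 0.17 for the other unexposed ones. Projected on the first component of the foragers, the exposed nurse pools 2J1, 2J2, 2J3, 2J4 and 2J5 scored 5.66, 0.70, 10.5, 18.9 and 4.54, and the unexposed nurse pools 1J7, 2J10, 2J6 and 2J7 scored 6.24, 0.52, -50.9 and 3.86. The nurse pool of colony 2J6 was thus alone at the low end, where the forager pools of 2J7 and 2J1 lay among foragers, and the nurse pools of 2J1 and 2J7 were not. The component had 26.8% of the variance among nurse pools, against 4.19% among apiary foragers and 6.42% among apiary nurses.

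The direction shared by field nurses and foragers rested largely on that nurse pool. Of the 2626 shared genes with an unadjusted p below 0.05 in foragers, 82.1% had the same sign in nurses, against 65.8% of all 10734 shared genes. Without nurse pool 2J6 these shares were 62.4% and 56.0%, whereas leaving out any other nurse pool left the first at 76.5% or more. Of the 2906 shared genes called in foragers without 2J1, 91.5% had the same sign with every nurse pool and 65.4% without 2J6, and of the 613 shared genes whose forager groups did not overlap, 81.2% and 57.9%. In apiary foragers the share among genes with an unadjusted p below 0.05 was 68.2%, against 59.2% of all shared genes, and in apiary nurses it was 45.6%, against 47.6%. Of the genes called in field foragers without 2J1, 76.5% had the same sign in apiary foragers and 37.0% in apiary nurses. Of the genes whose field forager groups did not overlap, 64.3% and 52.4% did.

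**Figure D5:**
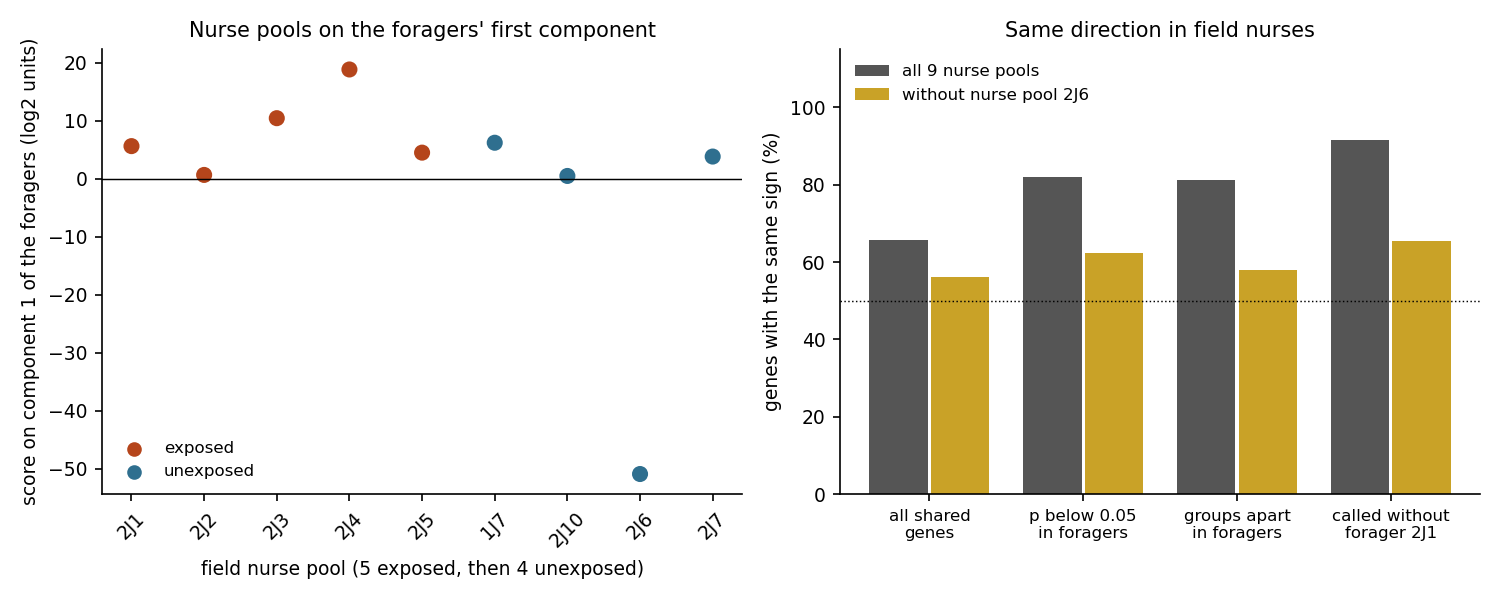
Left, scores of the 9 field nurse pools on the first component of the foragers (log2 units; exposed pools in red, unexposed pools in blue), where unexposed pool 2J6 lies at -50.9 and the others between 0.52 and 18.9. Right, percent of genes with the same sign of log2 fold change in nurses as in foragers, for 4 sets of genes, with all 9 nurse pools (grey) and without nurse pool 2J6 (yellow); for genes called without forager pool 2J1 the shares are 91.5% and 65.4%.

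The transcription factors show this gene by gene. All 14 factors that averaged higher in exposed foragers also averaged higher in exposed nurses, with a median log2 fold change of 0.34 there, and in all 14 the nurse pool 2J6 was the lowest of the 9. Without it 11 of the 14 averaged higher and the median was 0.05. Mblk-1 measured 10.38, 10.15, 10.31, 10.14 and 9.72 log2 CPM in exposed nurse pools 2J1 to 2J5, against 10.36, 9.63, 8.67 and 10.17 in unexposed nurse pools 1J7, 2J10, 2J6 and 2J7. Apart from 2J6 the nurse groups overlapped in Mblk-1. Kr-h1 did not follow this pattern: it measured 2.80, 3.16, 2.15, 2.37 and 3.57 log2 CPM in exposed nurse pools, against 3.49, 3.31, 3.12 and 4.74 in unexposed ones, and the groups overlapped. Its log2 fold change in nurses was -0.86 (standard error 0.37, limma adjusted p = 0.658) with all pools and -1.04 without 2J6.

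Whether the difference between exposed and unexposed bees itself differed between foragers and nurses was tested as an interaction of caste and exposure. Limma called 0 of 10734 genes (0%), the lowest adjusted p was 0.722, and 712 genes had an unadjusted p below 0.05, a number that was 385 without forager pool 2J2 and 1169 without forager pool 2J3. Mblk-1 differed by 0.44 (forager minus nurse, standard error 0.43, adjusted p = 0.837), Kr-h1 by 0.24 (standard error 0.39, adjusted p = 0.927) and LOC411780 by -0.29 (standard error 0.11, adjusted p = 0.722). Without the forager pool 2J1 and the nurse pool 2J6, chosen after the values were seen, 0 genes were called too, but the lowest adjusted p was 0.0566 and 2726 genes had an unadjusted p below 0.05.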

How the data were processed

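RNA of 10 forager pools was compared, 5 exposed and 5 unexposed. The reads had been trimmed (Trimmomatic 0.36), then aligned and counted by STAR on assembly amel 4.5 and gene set OGS v3.2, genes with low counts had been dropped, and the authors used TMM scaling (edgeR, R 3.6.3) and deposited log2 CPM values with a small prior count, which shrinks fold changes of genes with few reads. Each table was scaled on its own. Whole reads were worked back from the equal steps of the values (100% of those below 20000 reads lay within 0.1 of a whole number).

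The log2 values deposited by the authors were tested with limma 3.58.1 (trend, no covariate, R 4.3.3) over all genes of the table, since the deposited unit is not counts. The alternative on reads was a negative binomial likelihood ratio test with Cox-Reid dispersions (500 neighbouring genes, 10 prior degrees of freedom). The rest used Python 3.11.15 with pandas 2.3.3, scipy 1.17.1, numpy 2.4.6 and, for figures, matplotlib 3.10.9, and both tests were tested on simulated data. The simulated pools varied independently, with a common dispersion for all genes. They held no shared axis, so they do not show how the tests behave with a pool such as 2J1. The forager comparison, the lists and the named genes (16 transcription factors, genes shared between the study's comparisons, and the 2 lowest p in each direction) were chosen with earlier results of these data known. Detoxification genes are not reported here, because each matched several IDs. Every column was used, and 3 columns of unexposed apiary foragers were tied by name to their group but not to a single bee. The reference table of symbols matched no ID, so that cell type markers, promoters and sequences were not used here. Nurse and forager pools were tied by the colony in their labels, and the deviations of a colony's pools from their group means correlated from -0.2 to 0.49 over 9 colonies.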

Additional observations from a re-analysis of the deposited data

Results flagged for a closer look

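In 66 groups of 5 pools a lowest or highest pool was looked for with Dixon's criterion, which picks out about 5% of groups by chance, and 13 were picked out, 11 of them for the exposed pool 2J1. Among the exposed pools 2J1 was far below the others in LOC726709 (6.35 log2 CPM), LOC410253 (6.52), Foxp (5.89), LOC113218618 (6.19), LOC100577139 (7.01), LOC551364 (3.90), LOC726415 (5.28), Mblk-1 (9.70) and LOC724740 (3.31). These genes vary together, so they are not separate pieces of evidence. It was also far below them on the first component (-32.4) and on the axis left after the group means (-48.3). Among the unexposed pools 1J7 was far below the others in GB54288 (8.09 log2 CPM), still above each exposed pool, and 1J9 was far below them on the third component (-29.1).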

How the results depend on the processing

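In the forager pools 0 genes were called under 20 of 24 alternatives. The exceptions were pool quality weights (3389 genes), 2J1 and 2J7 left out (2233), the negative binomial test (296) and 2J1 left out, so that the range over single pools left out was 0 to 2921. Of the 22 named genes with a symbol or a shared listing, 0 were called in all 10 pools. With single pools left out 0 to 18 were called, the 18 without 2J1, where 26.6% of all genes were called. Quality weights gave 18, in a fit that called 30.9% of all genes. Leaving out 2J1 and 2J7 gave 18, in a fit that called 20.3%. The negative binomial test called 21, and 2.7% of all genes. The study had listed all 22 on these libraries by this kind of test, so these counts are not independent evidence. Of 618 fold changes under the alternatives, 0 changed sign, 90 passed the threshold and 528 did not. They cover 26 genes, the 22 and the unnamed IDs that were taken for their low p in these data. Genes without overlap numbered 104 to 1340 above and 546 to 1362 below with single pools left out, which was chosen after seeing the data. Quantile normalization moved the median log2 fold change to 0.0363 for the study's apiary nurse list, 0.0741 below 0 log2 CPM, -0.0121 from 0 to 3 and -0.0391 from 3 to 6, and 36 of 40 list medians under the alternatives moved by less than the spread of the pools. All 40 places and 16 component tests under other settings stayed on their side. In field nurses the share with the same sign ran from 62.4% to 92.5% with single nurse pools left out. Colony as a random block over castes called 0 genes (consensus correlation 0.0884). No paired analysis of exposed against unexposed foragers was possible because the groups share no colony. Exposure, site and, for 1J9 and 2J7, lane cannot be told apart.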
